A study of Homo sapiens with 6 samples.

Results

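The 10 genes examined here encode secreted acute-phase, complement and mucosal defense proteins: CP, LCN2, SAA1, SAA2, C3, CFB, C1S, SLPI, PI3 and PIGR. They were selected on function and partly chosen by the lower CP and LCN2 read counts after MSLN knockdown in these same samples, so their differences between groups are a description. No p-value is given for them, and which of them passed the threshold used for all genes is stated only to place them in the table. All 10 were found among the 17860 genes of the expression table and had a value in each of the 6 samples. The samples were HCC1806/HM3 cells, a derivative of the human breast carcinoma line HCC1806 selected through liver metastases in mice and labelled as breast squamous cell carcinoma cells. The control cells (shNC, 3 samples) carried a lentiviral control shRNA and the knockdown cells (shMSLN, 3 samples) a lentiviral shRNA against MSLN, and both were selected with G418, the drug to which the vector gives resistance. RNA was enriched with oligo(dT) beads and sequenced in bulk, so that fewer expressing cells and less RNA per cell cannot be told apart. The labels show a single knockdown genotype without naming the hairpin, and do not say whether replicates were separate cultures, so p-values measure only the spread between these samples.

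The acute-phase response is the change in secreted plasma proteins that follows inflammation, best known from hepatocytes, where interleukin-6, interleukin-1 and oncostatin M act through STAT3, C/EBP and NF-kB factors. Barrier epithelia make many of the same proteins locally, where complement tags microbes for removal, lipocalin 2 withholds iron from bacteria, antiproteases restrain neutrophil elastase and the polymeric immunoglobulin receptor carries IgA to the lumen.

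Each sample held between 17507837 and 18512135 estimated reads in all. MSLN itself was measured at 231, 226 and 227 CPM (read counts scaled to a common library size by the TMM method) in shNC 1 to 3 and at 37.1, 36.2 and 35.4 CPM in shMSLN 1 to 3, a log2 fold change of -2.65 (SE 0.0422, edgeR adjusted p = 3.97e-15). All 9 epithelial markers exceeded 1 CPM, with a summed level of 4231 to 4762 CPM in shNC and 3784 to 3935 CPM in shMSLN, led by the basal keratin KRT5. Of 10 hepatocyte markers, 3 had a value in all samples and 0 exceeded 1 CPM, the sum of those 3 being 0.219 to 0.334 CPM in shNC and 0.0565 to 0.430 CPM in shMSLN, and the 3 with missing values had at most 3 estimated reads in any shNC sample. Leukocyte markers summed to 27.6 to 30.6 and 26.1 to 29.4 CPM, most of it CD68, a lysosomal protein that epithelial cells also make. Fibroblast markers summed to 62.8 to 66.6 and 65.7 to 73.2 CPM, led by COL1A1, and endothelial markers to 8.26 to 9.85 and 9.78 to 10.8 CPM, led by VWF. The part of these markers in the results was not tested.

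Of the 10 genes, 8 had enough reads for the test across all genes and 2, SAA1 and PI3, did not. At an adjusted p below 0.05 (edgeR quasi-likelihood test), CP, LCN2, C3, SLPI and PIGR were lower in shMSLN and C1S was higher, while SAA2 and CFB were not called. Among all genes tested, 18.0% of 14552 were called lower and 16.6% higher, and since the choice of genes used this comparison, nothing is read from the 5 and 1 calls. All 3 shMSLN samples lay below all 3 shNC samples for 5 of the 8 tested genes and above them for 1, shares that were 23.5% and 22.7% among all tested genes. The 2 untested genes also lay below, but with at most 11 estimated reads in any sample, and the shares above leave out untested genes. CP, LCN2 and PIGR were lower by more than 2-fold, as were 0.722% of all tested genes. The median log2 fold change of the 8 tested genes was -0.46, beside 0.0019 over all tested genes.

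**Figure D1:**
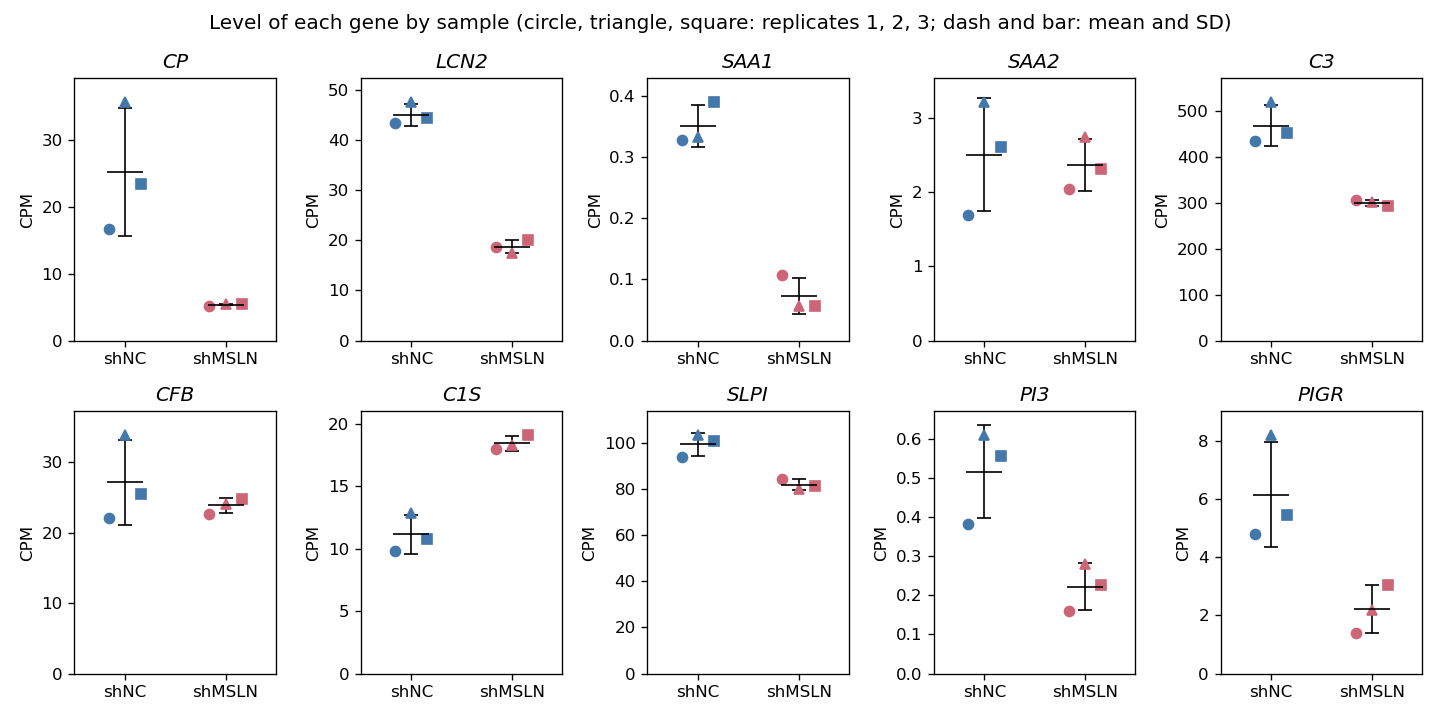
Level of each of the 10 genes in CPM (vertical axes, linear from 0, scaled separately for each gene) in the 3 shNC and the 3 shMSLN samples, with a point for each sample (circle, triangle and square for replicates 1, 2 and 3), a dash for the group mean and a bar for the SD. For CP the 3 shMSLN points sit between 5.21 and 5.48 CPM below shNC points spread from 16.7 to 35.6 CPM, whereas C1S is higher in shMSLN and SAA2 and CFB overlap.

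CP, the copper-carrying ferroxidase ceruloplasmin of plasma, was measured at 16.7, 35.6 and 23.3 CPM in shNC 1 to 3 and at 5.21, 5.44 and 5.48 CPM in shMSLN 1 to 3. The shMSLN samples lay close together, while the highest shNC sample exceeded the lowest by more than the whole shMSLN level. The mean went from 25.2 ± 9.59 to 5.38 ± 0.143 CPM (SD, n = 3 each), which was 21.3% of the shNC mean and a log2 fold change of -2.23 (SE 0.224). Without shNC 2, the sample with the highest value, the log2 fold change was -1.89. CP (NCBI Gene 1356) lies on chromosome 3 from 149162410 to 149222055 on the minus strand (GENCODE 29 on GRCh38, as for all gene positions given).

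LCN2 (Gene 3934; chromosome 9, 128149071 to 128153455, plus strand) encodes lipocalin 2, which binds the iron-carrying siderophores of bacteria. Its level was 43.3, 47.6 and 44.4 CPM in shNC 1 to 3 and 18.8, 17.5 and 20.0 CPM in shMSLN 1 to 3. The shNC samples lay much closer together than for CP, with an SD of log2 CPM of 0.0693 against 0.545, and the groups did not overlap. Among the shMSLN samples the SD of LCN2 was 0.0956, above 83.7% of 2851 genes of like level. The mean went from 45.1 ± 2.19 to 18.8 ± 1.25 CPM (SD, n = 3 each), which was 41.6% of the shNC mean and a log2 fold change of -1.27 (SE 0.0649).

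The promoters of LCN2, CFB and PIGR are shown because they are the 3 of the 10 with an entry in the RefSeq promoter table used here. Each runs 5′ to 3′ on the gene's strand from 250 bases before to 50 after the RefSeq start site (RefSeq, GRCh38.p14). The positions are chr9:128149203-128149502 (plus strand) for LCN2, chr6:31945845-31946144 (plus strand) for CFB and chr1:206946417-206946716 (minus strand) for PIGR. The LCN2 and CFB windows lie wholly within the GENCODE spans of these genes, so distances given below hold for the RefSeq start only. Capitals mark matches, on either strand, to a kB-like motif (GGGANNNNCC), a C/EBP-like motif (TTGCNNAA) and a STAT-like motif (TTCNNNGAA).
LCN2: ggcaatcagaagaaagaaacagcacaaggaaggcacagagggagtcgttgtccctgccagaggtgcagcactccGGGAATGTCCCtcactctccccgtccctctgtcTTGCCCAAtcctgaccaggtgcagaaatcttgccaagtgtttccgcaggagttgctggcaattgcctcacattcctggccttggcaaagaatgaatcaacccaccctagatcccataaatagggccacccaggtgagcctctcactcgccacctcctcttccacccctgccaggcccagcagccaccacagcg
CFB: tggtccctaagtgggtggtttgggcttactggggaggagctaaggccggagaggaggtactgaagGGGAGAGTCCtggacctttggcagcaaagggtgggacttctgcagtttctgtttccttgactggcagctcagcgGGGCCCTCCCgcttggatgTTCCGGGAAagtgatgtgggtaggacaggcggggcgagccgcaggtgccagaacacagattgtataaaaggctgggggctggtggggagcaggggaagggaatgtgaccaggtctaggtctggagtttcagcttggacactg
PIGR: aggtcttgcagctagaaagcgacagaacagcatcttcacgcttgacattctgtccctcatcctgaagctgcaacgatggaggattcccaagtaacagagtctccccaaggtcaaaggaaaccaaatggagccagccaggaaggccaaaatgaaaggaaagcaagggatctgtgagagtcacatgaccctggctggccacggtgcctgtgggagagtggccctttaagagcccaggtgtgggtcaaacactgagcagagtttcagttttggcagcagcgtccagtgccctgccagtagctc
LCN2 holds a kB-like match beginning 176 bases before the start site, whose shifted reverse-strand match begins 1 base later, and a C/EBP-like match beginning 143 bases before it. CFB holds kB-like matches beginning 185 and 111 bases before the start site and a STAT-like match beginning 92 bases before it. PIGR holds none of the 3. Of 35116 RefSeq promoters of the same length, 25.6% hold the kB-like, 10.5% the C/EBP-like and 7.66% the STAT-like motif, so the matches are descriptions of these windows only.

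SAA1 and SAA2 encode the serum amyloid A apolipoproteins, classical acute-phase reactants that bind lipid and retinol. SAA2 was measured at 1.70, 3.21 and 2.62 CPM in shNC 1 to 3 and at 2.04, 2.75 and 2.32 CPM in shMSLN 1 to 3. The groups overlapped throughout. The log2 fold change was -0.083 with a 95% interval from -0.58 to 0.41, so a difference of either sign within that range was not detectable here, and the sign turned positive without shNC 2 (0.14). SAA1 had only 6.01, 5.87 and 7.21 estimated reads in shNC 1 to 3 and 1.99, 1.07 and 1.19 in shMSLN 1 to 3. These are too few for the test, and counting error alone is large at such numbers. In CPM the SAA1 means were 0.350 ± 0.0342 and 0.0734 ± 0.0296 (SD, n = 3 each), a log2 ratio of -2.26. Over summed reads the ratio of shMSLN to shNC was 0.211 (95% exact binomial interval 0.0522 to 0.635, counting error only). That interval pools the reads of each group and leaves out the spread between samples, so it is no test of a difference.

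The SAA pair is uncertain as single genes, because SAA1 and SAA2 are closely related copies on chromosome 11 lying 17.5 kb apart, SAA1 (Gene 6288) at 18266174 to 18269977 on the plus strand and SAA2 (Gene 6289) at 18239223 to 18248643 on the minus strand. Of the distinct 25-base words in annotated SAA1 transcripts, 54.6% also occur in SAA2, as do 20.5% of those in SAA2 transcripts in SAA1, and reads within these words cannot be placed by sequence alone. Summed over both genes, the level was 2.86 ± 0.772 CPM in shNC and 2.44 ± 0.333 CPM in shMSLN (SD, n = 3 each), a log2 ratio of -0.23. SAA2 held most of the reads in the sum.

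C3 (Gene 718; chromosome 19, 6677704 to 6730562, minus strand) encodes the central component on which all complement pathways converge. It was measured at 434, 520 and 452 CPM in shNC 1 to 3 and at 305, 302 and 294 CPM in shMSLN 1 to 3. The groups were well apart although shNC 2 stood above the other controls. The mean went from 469 ± 45.1 to 300.3 ± 6.05 CPM (SD, n = 3 each), which was 64.1% of the shNC mean and a log2 fold change of -0.64 (SE 0.0537).

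CFB, the factor B protease that joins C3b to form the alternative pathway convertase, had 22.1, 33.9 and 25.5 CPM in shNC 1 to 3 and 22.7, 24.1 and 24.9 CPM in shMSLN 1 to 3. All shMSLN values lay inside the shNC range. Its log2 fold change of -0.19 (SE 0.115) had a 95% interval from -0.43 to 0.059. This value rested on single control samples: without shNC 2 it was 0.0057, and without shNC 1 it was -0.32. CFB (Gene 629) lies on chromosome 6 from 31945650 to 31952084 on the plus strand. In GENCODE 29 its start overlaps the end of C2, on the same strand, by 23 bases. The RefSeq start used for its promoter lies past that C2 end (31945672). Whether reads there were shared between the 2 genes in the deposited counts is not known.

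C1S (Gene 716; chromosome 12, 6988259 to 7071032, plus strand), the serine protease of the classical pathway that cleaves C4 and C2, was the 1 gene of the 10 called higher. It was measured at 9.85, 12.9 and 10.7 CPM in shNC 1 to 3 and at 18.0, 18.3 and 19.1 CPM in shMSLN 1 to 3. Every shMSLN sample lay above every shNC sample. The mean went from 11.2 ± 1.55 to 18.4 ± 0.584 CPM (SD, n = 3 each), which was 165% of the shNC mean and a log2 fold change of 0.73 (SE 0.0929). C1R, which encodes its partner protease and lies 9.17 kb away on the opposite strand of chromosome 12, went from 32.6 ± 4.48 to 59.0 ± 3.55 CPM (SD, n = 3 each; log2 fold change 0.85, edgeR adjusted p = 1.06e-06).

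**Figure D2:**
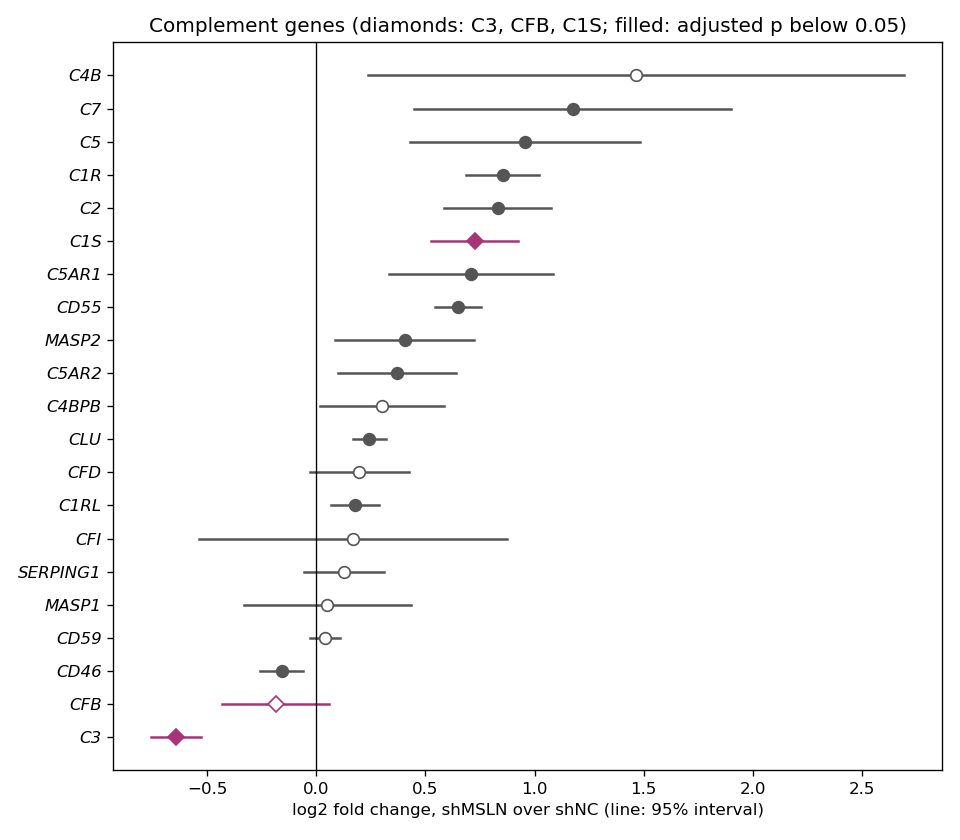
Log2 fold change (shMSLN over shNC, with 95% intervals) of tested complement components and regulators together with C3, CFB and C1S (diamonds). Filled symbols had an adjusted p below 0.05, and C4B, whose reads can be split with its near-identical copy C4A, did not. Most listed genes lie right of 0, with C1R at 0.85, whereas C3 lies at -0.64.

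Most other complement genes that were called were higher, as C1S was. Of 35 listed components and regulators other than the 3 above, 19 were tested. Of these, 11 rose, 1 fell and 7 were not called, with a median log2 fold change of 0.37. Among all tested genes 16.6% were called higher and 18.0% lower. This list, like those below, was drawn up with earlier results of these data known. CD55, a membrane protein that speeds decay of the C3 convertases, rose by a log2 fold change of 0.65 (edgeR adjusted p = 1.66e-07), higher in all 3 shMSLN samples. C2, the classical pathway convertase subunit next to CFB, rose from 12.1 ± 2.70 to 21.6 ± 1.33 CPM (SD, n = 3 each; log2 fold change 0.83, edgeR adjusted p = 5.96e-05). The 1 gene that fell was CD46, the membrane cofactor for C3b cleavage (log2 fold change -0.16, edgeR adjusted p = 0.0151), which was named for being the only fall. C4A, a near-identical copy of C4B, was left out for a missing value and had 21.1, 25.3 and 23.3 estimated reads in shNC 1 to 3 and 14.97 and 0 in shMSLN 2 and 3. With missing values taken as 0 counts, 13 complement genes were called in place of 12. CD59, the membrane inhibitor of the terminal pore, which had the most reads of the list, differed by 0.039 (edgeR adjusted p = 0.366). The list thus held rises of both activating proteases and inhibitors, beside the lower C3.

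SLPI and PI3 encode the secretory leukocyte protease inhibitor and elafin, antiproteases of mucosal surfaces that share the WAP domain. They lie 75.7 kb apart on chromosome 20, SLPI (Gene 6590) at 45252239 to 45254564 on the minus strand and PI3 (Gene 5266) at 45174876 to 45176544 on the plus strand. SLPI was measured at 93.7, 103 and 101 CPM in shNC 1 to 3 and at 84.2, 79.7 and 81.3 CPM in shMSLN 1 to 3. The difference was small but the groups did not overlap. The mean went from 99.2 ± 4.92 to 81.7 ± 2.30 CPM (SD, n = 3 each), giving a log2 fold change of -0.28 (SE 0.0469). PI3 had 6.71, 11 and 10 estimated reads in shNC 1 to 3 and 3, 5 and 4 in shMSLN 1 to 3, too few for the test. In CPM its means were 0.516 ± 0.119 and 0.223 ± 0.0597 (SD, n = 3 each), a log2 ratio of -1.22. Over summed reads the ratio of shMSLN to shNC was 0.43 (95% exact binomial interval 0.199 to 0.873, counting error only). As for SAA1, the interval leaves out the spread between samples and is no test of a difference.

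Among 13 other tested antiproteases, 2 rose, 4 fell and 7 were not called, beside 16.6% higher and 18.0% lower over all tested genes. Their median log2 fold change was -0.0045. SERPINE2, an inhibitor of thrombin and urokinase, fell from 14.5 ± 1.62 to 7.36 ± 0.563 CPM (SD, n = 3 each; log2 fold change -0.98, edgeR adjusted p = 6.24e-06). TFPI, the inhibitor of tissue factor, fell less (log2 fold change -0.28, edgeR adjusted p = 0.00805). SPINT2, a Kunitz-type inhibitor of cell-surface proteases, rose (0.24, edgeR adjusted p = 0.000567), and its relative SPINT1, which had the most reads of the list, differed by 0.022 (edgeR adjusted p = 0.669).

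PIGR (Gene 5284; chromosome 1, 206928518 to 206946466, minus strand), the receptor that transports polymeric IgA across epithelia, was measured at 4.82, 8.20 and 5.45 CPM in shNC 1 to 3 and at 1.40, 2.19 and 3.05 CPM in shMSLN 1 to 3. The groups did not overlap, though both were widely spread. The mean went from 6.16 ± 1.80 to 2.21 ± 0.826 CPM (SD, n = 3 each), which was 35.9% of the shNC mean and a log2 fold change of -1.48 (SE 0.248). Without shNC 2 the log2 fold change was -1.22.

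Other genes of mucosal antimicrobial defense mostly did not enter the test. Of 25 listed, 21 were in the table, 16 had values in all samples and 10 were tested. Of these, 1 rose, 5 fell and 4 were not called, beside 16.6% higher and 18.0% lower over all tested genes. Their median log2 fold change was -0.23. The 5 that fell were the dual oxidase genes DUOX1 and DUOX2, their maturation factor genes DUOXA1 and DUOXA2, and DMBT1. LYZ, DEFB1, RNASE7 and CCL28 were not called. DUOX2, an oxidase that makes hydrogen peroxide at epithelial surfaces, fell from 24.0 ± 4.39 to 10.9 ± 0.232 CPM (SD, n = 3 each; log2 fold change -1.13, edgeR adjusted p = 2.37e-06). DUOXA2, its maturation factor, fell by 1.31 on the log2 scale (edgeR adjusted p = 0.00547), and DUOX1, the other dual oxidase, fell by 0.24 (edgeR adjusted p = 0.00177). All 3 were lower in every shMSLN sample. ADM, which encodes the peptide adrenomedullin, rose from 19.5 ± 1.13 to 38.2 ± 1.37 CPM (SD, n = 3 each; log2 fold change 0.97, edgeR adjusted p = 3.29e-08).

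Per transcript length, on the authors' TPM scale, SLPI led the 10 genes in shNC with a mean of 390 ± 26.7 TPM, followed by C3 at 195 ± 23.1 and LCN2 at 126 ± 8.91 (SD, n = 3 each). CFB came next at 25.4 ± 5.71, then CP at 14.1 ± 5.32 and C1S at 9.09 ± 1.39 TPM, the last 2 of which overlapped between single samples. PIGR (3.18 ± 1.01), SAA2 (3.16 ± 0.890), PI3 (2.20 ± 0.582) and SAA1 (1.62 ± 0.186 TPM) followed, and neighbours among these 4 did not differ beyond their spread. In shMSLN the leading 4 kept their order, while C1S, at 15.3 ± 0.483 TPM, stood above CP, at 3.19 ± 0.223 TPM.

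**Figure D3:**
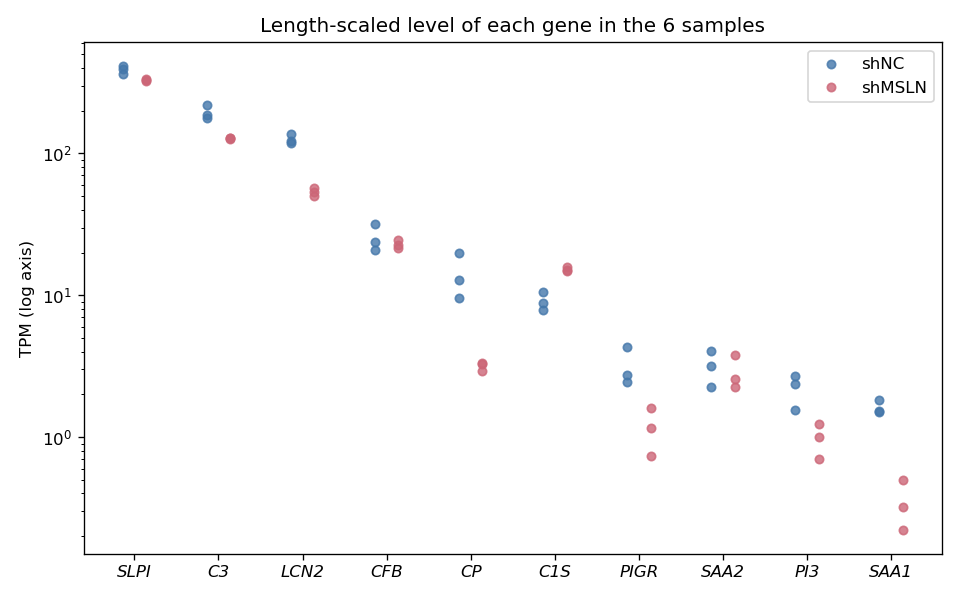
TPM of the 10 genes (log axis) in each shNC and shMSLN sample, ordered by the shNC mean. SLPI, C3 and LCN2 lead in both groups, and C1S passes CP in shMSLN.

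Within the control group, 9 of the 10 genes had the order shNC 1 below shNC 3 below shNC 2, as did 23.6% of all tested genes. PI3 was among the 9 with at most 11 estimated reads in a sample. The sample shNC 2 was the highest of the 3 controls for 9 of the 10, all but SAA1. On rounded counts shNC 1 was the lowest for all 10. For SAA1 this rests on the rounding, since its estimated reads were 6.01 in shNC 1 and 5.87 in shNC 2. Among all tested genes, shNC 2 was the highest for 35.9% and shNC 1 the lowest for 39.8%. The ratio of shNC 2 to the mean of the other controls was 1.78 for CP, 1.60 for PIGR, 1.49 for SAA2 and 1.42 for CFB, and it was 1.08 for LCN2 and 1.06 for SLPI, beside a median of 1.002 over all tested genes. CP had an SD of log2 CPM of 0.545 in shNC, above 99.9% of 2094 genes of like level, and CFB 0.312, above 99.8% of 2702. The shNC spread of LCN2 (0.0693, above 46.0% of 2851) and SLPI (0.0724, above 64.0% of 2169) was ordinary for genes of like level. Among the shMSLN samples CP had an SD of 0.0378, whereas PIGR had 0.535, above 99.2% of 1020 genes of like level. Of the other tested genes, shNC 2 was highest for 14 of 19 complement genes, 2 of 2 acute-phase genes, 8 of 15 iron genes, 5 of 10 mucosal genes, 10 of 23 inducers, 4 of 13 antiproteases and 2 of 9 epithelial markers. What set shNC 2 apart was not tested. Without it, 5 of the 10 genes were called lower and 1 higher, beside 2566 lower and 2343 higher of 14722 tested genes. Nothing is read from these calls.

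**Figure D4:**
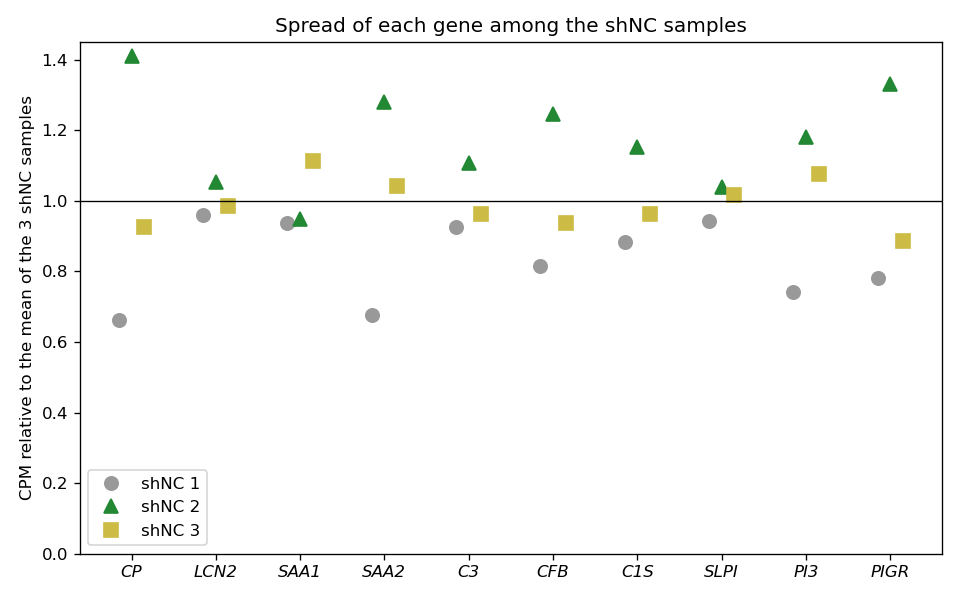
Value of each gene in each shNC sample (marked by shape) as CPM divided by the mean of the 3 shNC samples, on a linear axis from 0. Points of shNC 2 are highest for all genes but SAA1, and CP and SAA2 are spread widest, followed by PIGR.

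CP and LCN2 both bear on iron, but genes of iron and lipocalin handling did not move in a single direction. Of 15 tested, 4 rose, 4 fell and 7 were not called, beside 16.6% higher and 18.0% lower over all tested genes. Their median log2 fold change was -0.034. TFRC, the transferrin receptor for iron uptake, rose from 264 ± 9.01 to 398 ± 8.76 CPM (SD, n = 3 each; log2 fold change 0.59, edgeR adjusted p = 2.71e-08). FTH1, the heavy chain of the iron store ferritin, fell from 4011 ± 293 to 2629 ± 11.8 CPM (SD, n = 3 each; log2 fold change -0.61, edgeR adjusted p = 6.65e-08), although FTH1 has many processed pseudogenes that could take its reads. STEAP3, an endosomal reductase of iron, fell (-0.45, edgeR adjusted p = 2.42e-06), and BDH2, a dehydrogenase proposed to make a mammalian siderophore, rose (0.62, edgeR adjusted p = 6.57e-06), each with no overlap between groups.

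Most other acute-phase genes of the liver were barely detected in these cells. Of 20 listed, 15 were in the table, 6 had values in all samples and 2 were tested, and the 9 with missing values had at most 2 estimated reads in any shNC sample. TF, transferrin, was measured at 16.3, 16.4 and 14.9 CPM in shNC 1 to 3 and at 17.4, 30.1 and 27.6 CPM in shMSLN 1 to 3. It rose, with shMSLN 1 close to the controls (log2 fold change 0.66, edgeR adjusted p = 0.00303), but was not called with robust estimation of the dispersion. The list did not separate proteins that rise from those that fall in the acute-phase response, so nothing about that response is read from TF. ITIH4, the other tested gene, differed by 0.19 (edgeR adjusted p = 0.75).

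Among the cytokines, receptors and transcription factors known to induce acute-phase genes, 23 were tested. Of these, 10 fell, 2 rose and 11 were not called, beside 18.0% lower and 16.6% higher over all tested genes. Their median log2 fold change was -0.19. With the replicate block, 17 were called in place of 12. CEBPB, the C/EBP factor first known as NF-IL6, fell from 136 ± 4.73 to 89.6 ± 4.24 CPM (SD, n = 3 each; log2 fold change -0.60, edgeR adjusted p = 1.63e-07). The NF-kB subunits NFKB2 (-0.52, edgeR adjusted p = 1.43e-06) and RELB (-1.04, edgeR adjusted p = 3.7e-06) fell in all 3 shMSLN samples. OSMR, the oncostatin M receptor, fell by 0.45 on the log2 scale (edgeR adjusted p = 1.85e-05). The 2 that rose, named for their small number, were the receptor subunits IL6R (0.53, edgeR adjusted p = 0.00367) and IL1RAP (0.32, edgeR adjusted p = 0.000323). REL, which had the most reads of the list, differed by 0.12 (edgeR adjusted p = 0.279).

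The genes whose pattern over the 6 samples lay nearest to CP, by root mean square difference of centred log2 CPM among 13754 genes, were SAMSN1 (0.235), GABRP (0.240) and HBEGF (0.359). Those nearest to LCN2 were CXCL8 (0.0472), SERTAD4 (0.0599) and ASS1 (0.0760), all closer than any gene was to CP. SAMSN1 went from 1.92, 2.94 and 2.39 CPM in shNC 1 to 3 to 0.645, 0.505 and 0.621 CPM in shMSLN 1 to 3, with shNC 2 highest as for CP. CXCL8 went from 12.4, 13.6 and 12.4 to 5.16, 4.99 and 6.10 CPM. Nearness was taken over all 6 samples, so these genes were picked for a difference between groups like that of CP or LCN2. Their lower shMSLN values follow from that choice and are a description only.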

How the data were processed

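RNA-Seq of 3 shNC and 3 shMSLN samples was examined, with columns assigned to samples through their names. The authors deposited estimated counts that are not scaled to library size, and TPM and FPKM values that are scaled for length and depth. The submitters' processing notes name the build GRCh38 p13, while the aligner and quantifier are not given in the sources used here. Missing marks stood at 1103, 695 and 695 values in shMSLN 1 to 3 and at 0 in each shNC sample. What they stand for is not stated, but shMSLN 1 held 0 zero counts, against 1094 to 1150 in the shNC samples. The 16573 genes with 6 values were kept and 1287 were left out. This may remove genes with few or no reads in shMSLN. In the deposited counts, whole numbers made up 47.7% of values over 100 in shMSLN 2 and 3 and 3.36% to 7.02% in the other samples.

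Counts were rounded and tested in R 4.3.3 with edgeR 4.0.16 (filterByExpr, TMM, glmQLFit and glmQLFTest, no covariate), with Benjamini-Hochberg adjustment over 14552 genes. SE is the log2 fold change divided by the square root of F. For SAA1 and PI3 the log2 ratio of mean CPM is given. On simulated counts for shMSLN against shNC with 200 well-covered genes of 14534 changed 2-fold, edgeR called 100% and 14 unchanged genes, DESeq2 98.5% and limma-voom 100%. The genes and lists were chosen with earlier results of these data known. Named genes were the 10, MSLN, up to 4 genes of each list that passed the threshold with the smallest adjusted p and averaged 1 CPM or more, the gene with the highest mean CPM of each list, and the 3 nearest to CP and LCN2. CD46, IL6R, IL1RAP, ITIH4, C4A, C4B, KRT6A, CDH1, KRT17 and EPCAM were added to these once their values had been seen. So were DUOXA1, DMBT1, LYZ, DEFB1, RNASE7 and CCL28. Some genes covered by the rule are left out of the text and plots, though the list counts include them. All 10 genes matched RefSeq by Gene number, and 3 had a promoter entry. Alternatives were RLE and upper-quartile scaling, 2 filters, DESeq2 1.42.0, voom of limma 3.58.1, robust estimation, the replicate block, each sample left out, missing values as 0 counts, a fold rule, and FPKM for TPM.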

Additional observations from a re-analysis of the deposited data

How the results depend on the processing

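Since the genes were chosen partly on this comparison, the ranges of their log2 fold changes over 15 alternatives are a description and no sign of stability. They ran from -2.45 to -1.89 for CP, -1.31 to -1.22 for LCN2 and -1.78 to -1.22 for PIGR. SAA2 went from -0.30 to 0.14 when single samples were left out. It turned positive without shNC replicate 2 (0.14) and without shMSLN replicate 1 (0.014), and CFB without shNC replicate 2 (0.0057), while CFB was called without shNC replicate 1 (-0.32); fewer samples entered these fits, and the cause was not tested. SAA1 alone had a log2 ratio of -2.26, against -0.23 for the SAA1 and SAA2 sum.

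Requiring a fold above 2 left 285 called genes in place of 5032, and 105 of the 285 were lower. Of the 10 genes, 3 were then called lower and 0 higher. The lists kept 0 acute-phase, 2 complement, 0 antiprotease, 2 mucosal, 0 iron and 1 inducer genes, because that rule is stricter by construction. Robust estimation left 0 acute-phase genes called, since TF was lost. Upper-quartile scaling gave 2911 higher and 2149 lower calls in place of 2411 and 2621 and moved the median of all genes to 0.031. Leaving out single samples gave 3695 to 5399 called genes.

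With the replicate block 5789 of 14552 tested genes were called, 3004 lower and 2785 higher. Of the 10 genes, 5 were called lower and 1 higher, and called inducers went from 12 to 17. Same-numbered samples correlated at 0.165, 0.0764 and 0.0718, not all over 0.1, so the numbers were not taken to pair samples, although each sample correlated best with its own number. SAA1 and PI3, with at most 11 estimated reads in any sample, are limited by depth.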

Other observations

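Epithelial markers changed unequally. Of 9 tested, 4 fell, 2 rose and 3 were not called, beside 18.0% lower and 16.6% higher over all tested genes. KRT5, which had the most reads, fell by 0.38 on the log2 scale (edgeR adjusted p = 1.4e-05), and KRT6A, a keratin of activated keratinocytes chosen after its values were seen, fell from 145 ± 24.4 to 70.9 ± 0.564 CPM (SD, n = 3 each; log2 fold change -1.04, edgeR adjusted p = 4.12e-07). The 2 that rose, named for their small number, were CDH1, the adhesion protein E-cadherin (log2 fold change 0.15, edgeR adjusted p = 0.00581), and the keratin KRT17 (0.16, edgeR adjusted p = 0.00954), each with no overlap between groups. EPCAM, also chosen after its values were seen, differed by -0.030 (edgeR adjusted p = 0.59).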
